A study of Mus musculus with 6 samples.

Results

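The genes Lin28a, Lin28b, Trim71, Dis3l2, Hmga2, Igf2bp1, Igf2bp2 and Igf2bp3 were examined in motor neurons (MNs) made from mouse embryonic stem cells (mESCs). They were chosen by name, as RNA-binding proteins and a chromatin protein known from embryonic and tumor cells, together with Dis3l2, a nuclease of the LIN28 pathway. The rule used no measured value, but it was written with earlier results of these data known. The table of RNA-Seq levels has 41945 entries, and each of the 8 genes matched 1 of them. All 8 genes were among the 14926 entries with a gene symbol, 1 FPKM or more in Hb9 or A2 SMA MNs and no value of 0, which are called the genes past the filter from here on. FPKM counts fragments relative to transcript length and to the mapped reads of a library, so levels of different genes can be set side by side per length.

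Hb9 control MNs came from a line that is SMN2+/+;mSmn+/+ (wildtype in the labels), and A2 SMA MNs from a line that is SMN2+/+;mSmn-/- and models spinal muscular atrophy (SMA). Both lines have an FVB/N background and carry the human SMN2 transgene and the HB9:eGFP reporter, in which the promoter of the MN gene Hb9 drives the fluorescent protein. Embryoid bodies of both lines were treated for 5 days with 1 µM retinoic acid and 1 µM SAG, a Smoothened agonist, and cells that were GFP-positive and excluded propidium iodide were sorted for RNA, with 3 samples per genotype. The table gives 1 pooled FPKM value per genotype and none per sample, so no SD or interval over samples could be formed for any level or ratio here, and the columns of the authors' own test were not used. Smn1, the gene targeted in the A2 line, was at 137 FPKM in Hb9 and 5.26 FPKM in A2 SMA MNs. Each genotype is 1 line, and an effect of genotype and a difference between the lines cannot be told apart. "Higher" and "lower" below describe the ratio of the 2 pooled values, A2 SMA over Hb9.

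LIN28A and LIN28B are RNA-binding proteins of early embryos and stem cells that grip the precursors of the let-7 microRNAs and block their processing. LIN28A recruits a terminal uridylyl transferase, TUT4 or TUT7. The oligouridine tail blocks Dicer, and the exonuclease DIS3L2 degrades the tailed precursor. Mature let-7 accumulates as cells differentiate, and it represses mRNAs with matching 3′ UTR sites, among them those of LIN28 itself, of HMGA2, an AT-hook protein that bends DNA in chromatin, of TRIM71 (LIN-41), an RNA-binding ubiquitin ligase, and of the IGF2BP proteins, which bind IGF2 and many other mRNAs and affect their stability, transport and translation. Apart from DIS3L2 and IGF2BP2, these genes are active in embryonic or fetal tissue and mostly low in adult tissue, and several are active again in tumors. In the nervous system LIN28 and HMGA2 are known from young neural stem cells, and IGF2BP1 (ZBP1) from transport of beta-actin mRNA into neurites.

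RefSeq (GRCm38.p6) lists 11 mature mouse sequences of the let-7 family, miR-98 included, and 10 of them share the seed GAGGUAG, which is bases 2 to 8. The other is let-7j, with the seed GAGGUAU. The lines below run 5′ to 3′ with the seed in capitals, and were picked to show that, apart from let-7j, the sequences differ outside it.
let-7a-5p: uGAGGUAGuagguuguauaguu
let-7d-5p: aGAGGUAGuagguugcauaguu
let-7i-5p: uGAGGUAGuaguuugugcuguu
miR-98-5p: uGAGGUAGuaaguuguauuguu
let-7j: uGAGGUAUuaguuugugcuguuau

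The reverse complement of the shared seed, CTACCTC, was searched on the sense strand of the annotated 3′ UTR of 1 transcript per gene, the coding transcript with the longest coding sequence (GENCODE M21, GRCm38). It occurs 20 times in 7 of the 8 genes. Of 20557 genes with a 3′ UTR, 8.01% have at least 1 such match and 0.939% at least 2. The first match after the stop codon is shown for each of the 7 genes, with the second of Lin28a and of Trim71, to show the letters that the seed could pair with in the genes measured here. Capitals mark the match, and each stretch lies within 1 exon, in the 3′ UTR and on the minus strand of GRCm38.
Lin28a, chr4:134005189-134005211, match 909 bases after the stop codon: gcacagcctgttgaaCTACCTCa
Lin28a, chr4:134004551-134004573, 1547 bases after it: gagatcgccacaaacCTACCTCa
Lin28b, chr10:45381022-45381044, 36 bases after it: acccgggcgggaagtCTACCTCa
Trim71, chr9:114512472-114512494, 166 bases after it: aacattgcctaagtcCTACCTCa
Trim71, chr9:114512376-114512398, 262 bases after it: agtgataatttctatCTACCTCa
Hmga2, chr10:120364224-120364246, 58 bases after it: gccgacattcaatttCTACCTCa
Igf2bp1, chr11:95961778-95961800, 1715 bases after it: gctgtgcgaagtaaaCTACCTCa
Igf2bp2, chr16:22059473-22059495, 1313 bases after it: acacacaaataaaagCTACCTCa
Igf2bp3, chr6:49086787-49086809, 548 bases after it: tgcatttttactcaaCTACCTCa

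Lin28b, Trim71, Hmga2 and Igf2bp1 have 4 matches each, in 3′ UTRs of 4445, 5512, 3014 and 6337 bases. Lin28a has 2 matches in 2775 bases, Igf2bp2 has 1 in 1784 bases, and Igf2bp3 has 1 in 2119 bases. Dis3l2, the nuclease of the pathway, has a 3′ UTR of 350 bases and no match in it. Long 3′ UTRs hold more matches by length alone, so each count was set beside the 3′ UTRs of 0.8 to 1.25 times the same length. At least 4 matches are present in 0.0978% of 3′ UTRs like that of Hmga2, 0.351% of those like Lin28b, 0.412% of those like Igf2bp1 and 0.590% of those like Trim71. At least 2 matches are present in 1.99% of those like Lin28a. At least 1 match is present in 2.91% of those like Dis3l2, 11.9% of those like Igf2bp2 and 13.2% of those like Igf2bp3, so 1 match is not rare at the lengths of Igf2bp2 and Igf2bp3. A match of 7 letters is a description of the annotated sequence and not evidence that let-7 was bound in these cells.

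**Figure D1:**
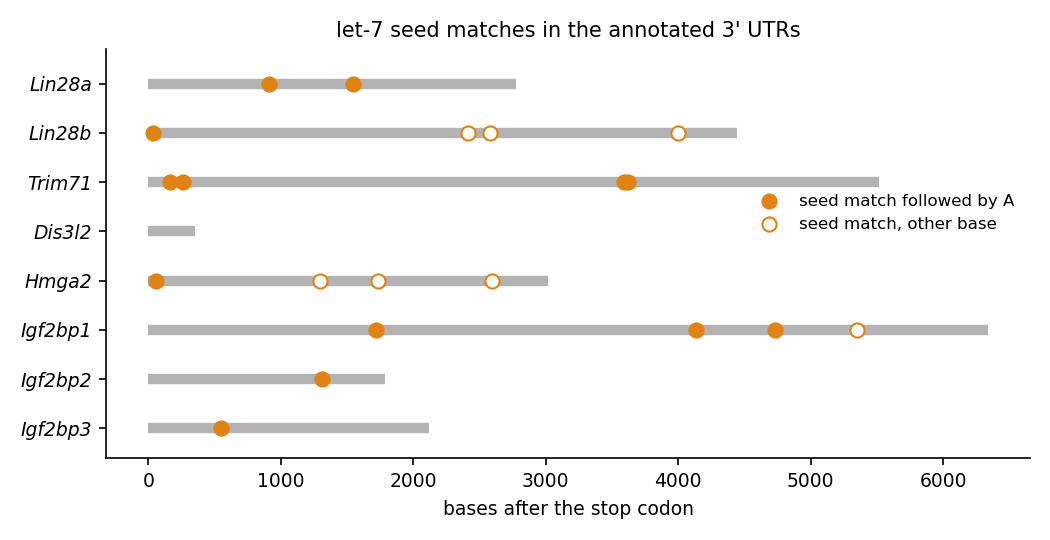
Each grey bar is the annotated 3′ UTR of 1 gene, drawn to scale in bases after the stop codon (x axis), and each circle is a match to the shared let-7 seed, filled where an A follows it and open where another base does. Lin28b, Trim71, Hmga2 and Igf2bp1 carry 4 circles each and Dis3l2 none.

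In the RNA-Seq table, Lin28b and Hmga2 were the 2 of the 8 genes at least 2-fold lower in A2 SMA MNs, against 22.4% of all genes past the filter, and 0 of 8 were at least 2-fold higher, against 6.83%. At a limit of 1.5-fold, 4 of 8 were lower (Lin28b, Hmga2, Igf2bp2 and Igf2bp3) against 35.4% of all genes, and 1 was higher (Trim71) against 12.7%. These shares are close to the background in each direction for so short a list. The median log2 ratio of the 8 genes was -0.51, and that of all 14926 genes was -0.29 with quartiles of -0.89 and 0.19. The whole table thus leaned toward Hb9, with 65.9% of ratios below 0, and 4 of the 8 genes lay above the median gene and 4 below it.

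**Figure D2:**
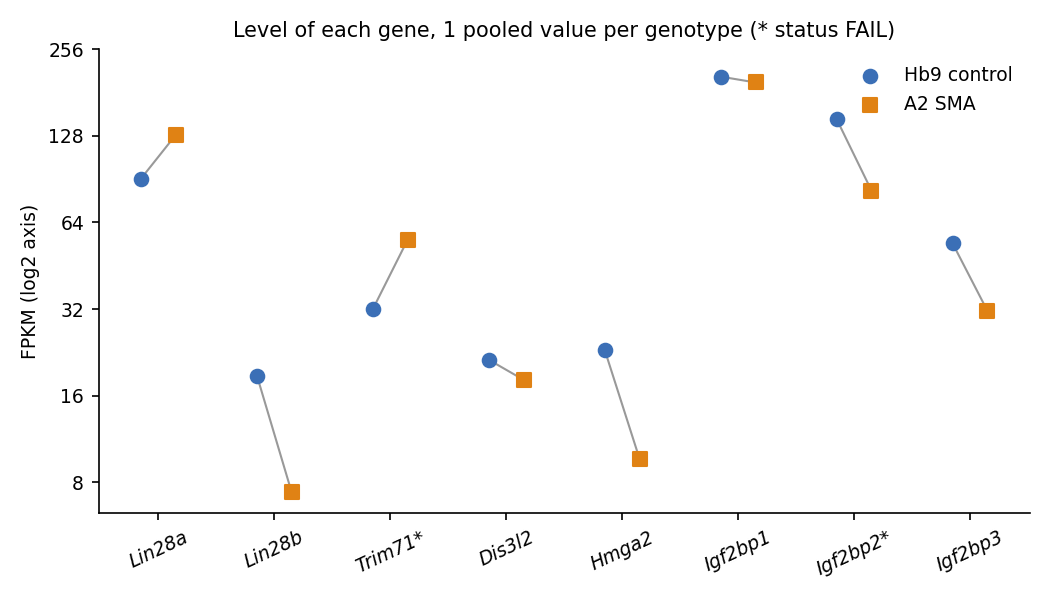
The y axis gives FPKM on a log2 axis for each of the 8 genes (x axis), with circles for Hb9 control and squares for A2 SMA MNs, each 1 pooled value of 3 samples without an error. Lin28a and Trim71 slope upward from Hb9 to A2 SMA, Igf2bp1 and Dis3l2 are nearly level, and Lin28b, Hmga2, Igf2bp2 and Igf2bp3 slope downward.

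The 2 inhibitors of let-7 processing went in opposite directions. Lin28a (chr4:133559244-133575784 in NCBI m37, the build of the table) was at 90.9 FPKM in Hb9 and 129 FPKM in A2 SMA MNs (log2 ratio 0.51, 1.42-fold higher). Lin28b (chr10:45096382-45206210) was at 18.8 FPKM in Hb9 and 7.37 FPKM in A2 SMA MNs (log2 ratio -1.35, 2.55-fold lower). Lin28a was thus the major form in both genotypes, and Lin28b ranked last of the 8 genes in both. Lin28a made up 82.9% of the summed Lin28 FPKM in Hb9 and 94.6% in A2 SMA MNs. The quotient of Lin28a over Lin28b went from 4.84 to 17.5, which is 3.61 times as large, and since it is formed within each genotype it does not depend on how the genotypes are scaled to each other. The sum of the pair was 110 FPKM in Hb9 and 136 FPKM in A2 SMA MNs (log2 ratio 0.31), so the lower Lin28b level was offset in the sum by the higher Lin28a level.

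Trim71, the stem cell ubiquitin ligase that represses mRNAs together with microRNAs, had the highest ratio of the 8 genes. It was at 32.0 FPKM in Hb9 and 55.8 FPKM in A2 SMA MNs (chr9:114416422-114473669) (log2 ratio 0.80, 1.74-fold higher). Its ratio exceeded that of 91.0% of the genes past the filter, and that of Lin28a exceeded 85.5%. Its entry has the status FAIL, meaning that Cuffdiff could not complete its test there, as do 14.0% of the entries past the filter and, among the 8 genes, Igf2bp2. Lin28a stood at 2.84 times the level of Trim71 in Hb9 and 2.31 times in A2 SMA MNs. Its relatives of the TRIM-NHL family, proteins with the same RNA-binding and ubiquitin ligase layout, were at least 2-fold lower in A2 SMA MNs in 3 of 3 cases, beside 22.4% of all genes: Trim2 at 22.0 and 6.38 FPKM, Trim3 at 48.8 and 22.0 FPKM, and Trim32 at 37.6 and 14.9 FPKM in Hb9 and A2 SMA MNs, with the status FAIL for Trim2 and Trim32, so that without such entries Trim3 alone was left. Their median log2 ratio was -1.34, and 2 of 3 were still 2-fold lower after centring on the median gene (16.5% of all genes).

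Dis3l2, the exonuclease that degrades uridylated let-7 precursors, differed little. It was at 21.3 FPKM in Hb9 and 18.2 FPKM in A2 SMA MNs (chr1:88600378-88946672) (log2 ratio -0.23). This ratio lies 0.06 above the median gene, so its sign changes when ratios are centred on it. Of its relatives, Dis3l, a catalytic subunit of the cytoplasmic exosome, was at a like level and ratio, at 19.9 and 15.9 FPKM (log2 ratio -0.32). Dis3, the nuclear one, had a ratio of the opposite sign, at 28.2 and 39.9 FPKM (0.50).

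Hmga2 was at 23.0 FPKM in Hb9 and 9.65 FPKM in A2 SMA MNs (chr10:119798330-119914108) (log2 ratio -1.26, 2.39-fold lower). Lin28b and Hmga2, which lie on the same chromosome, had like levels in both genotypes, with a quotient of Lin28b over Hmga2 of 0.815 in Hb9 and 0.764 in A2 SMA MNs. The ratios of the pair lay just beyond the 2-fold limit, and after centring on the median gene they were -1.06 for Lin28b and -0.97 for Hmga2. None of the 6 related genes for high mobility group proteins of the HMGA and HMGN type passed 2-fold in either direction (22.4% of all genes lower, 6.83% higher), and their median log2 ratio was 0.07. After centring on the median gene 1 of 6, Hmga1, was at least 2-fold higher, beside 10.4% of all genes. Hmga1, the other AT-hook gene, was at 16.2 FPKM in Hb9 and 28.3 FPKM in A2 SMA MNs (0.81 on the log2 scale), in an entry shared with C130040N14Rik. Reads of Hmga1 may be shared with similar sequences elsewhere in the genome, so its value is uncertain. Hmgn3, a nucleosome-binding protein, was at 68.0 and 34.1 FPKM, 1.99-fold lower and so just short of the limit. The AT-hook genes therefore stood on opposite sides of 0, Hmga2 below it and Hmga1 above it.

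Igf2bp1 was the most abundant of the 8 genes in both genotypes, at 206 FPKM in Hb9 and 196 FPKM in A2 SMA MNs (chr11:95818476-95867254) (log2 ratio -0.07). This level exceeded that of 97.4% of the genes past the filter in each genotype. The entry is shared with the microRNA gene Mir3063, and the sign of so small a ratio turned positive when the ratios were centred on the median gene (0.22) or scaled to the upper quartile, and likewise with the reference genes Gusb, Pgk1 and Rpl13a.

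The paralogs of Igf2bp1 were lower in A2 SMA MNs by like amounts. Igf2bp2 was at 146 FPKM in Hb9 and 82.6 FPKM in A2 SMA MNs (chr16:22059081-22163372, status FAIL) (log2 ratio -0.82, 1.77-fold lower). Igf2bp3 was at 54.1 FPKM in Hb9 and 31.5 FPKM in A2 SMA MNs (chr6:49023793-49164953) (log2 ratio -0.78, 1.72-fold lower). The quotient of Igf2bp2 over Igf2bp3 was 2.70 in Hb9 and 2.62 in A2 SMA MNs, while that of Igf2bp1 over Igf2bp2 went from 1.41 to 2.38 and that of Igf2bp1 over Igf2bp3 from 3.80 to 6.22. The order of the 3 paralogs was the same in both genotypes. Igf2bp1 made up 50.7% of their summed FPKM in Hb9 and 63.2% in A2 SMA MNs, and the sum was 406 FPKM and 310 FPKM (log2 ratio -0.39). None of the 36 pairs among the annotated transcripts of the 8 genes and Hmga1 share a stretch of 50 bases, so the paralogs are distinct at that length.

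**Figure D3:**
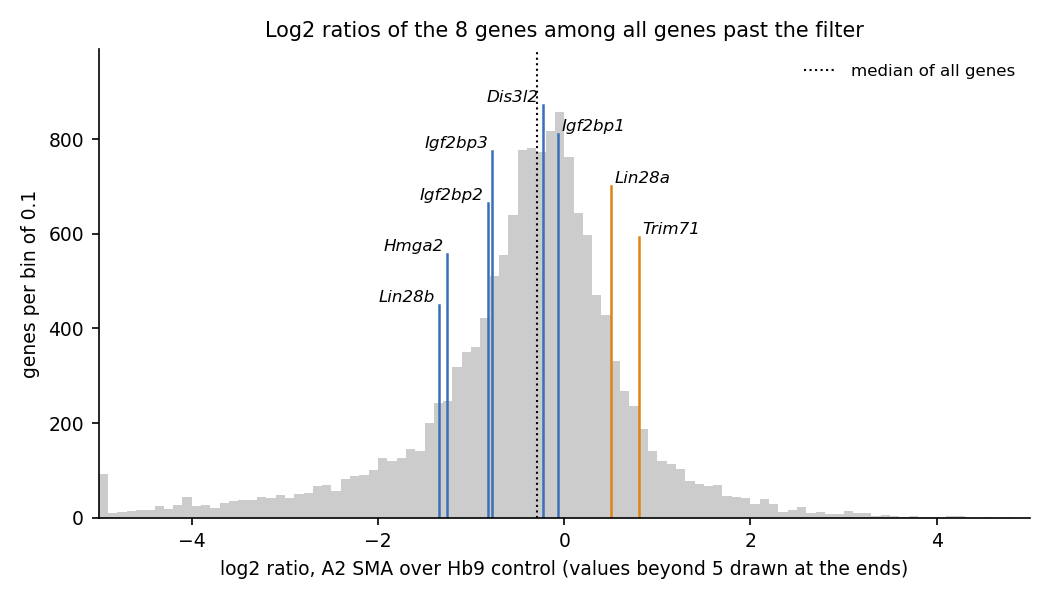
The grey histogram counts genes past the filter (y axis) by log2 ratio of A2 SMA over Hb9 control in bins of 0.1 (x axis), with ratios beyond 5 drawn at the ends, and the dotted line marks the median of all genes. Lines for the 8 genes, whose heights carry no value, run from Lin28b at -1.35 to Trim71 at 0.80 and lie within the body of the distribution on both sides of its median.

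By rank of level within the 8 genes, the order in Hb9 was Igf2bp1, Igf2bp2, Lin28a, Igf2bp3, Trim71, Hmga2, Dis3l2 and Lin28b. In A2 SMA MNs Lin28a passed Igf2bp2, Trim71 passed Igf2bp3, and Dis3l2 passed Hmga2. The levels spanned 10.9-fold in Hb9 and 26.6-fold in A2 SMA MNs. Whether neighbors in either order differ beyond the spread of the samples cannot be told without values per sample.

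Markers of cell types stood far apart between the genotypes, and these values belong beside each ratio above. Markers of pluripotent cells were at least 2-fold higher in A2 SMA MNs in 8 of 8 cases (median log2 ratio 2.69), and their summed level, which like those below covers every marker of the list found in the table, was 273 FPKM in Hb9 and 1794 FPKM in A2 SMA MNs. Neuron markers were at least 2-fold lower in 7 of 7 cases, with sums of 1198 and 130 FPKM, and MN markers in 5 of 6, with sums of 280 and 55.6 FPKM. The exception was Mnx1, the Hb9 gene whose promoter drives the sorting reporter, at 41.2 and 44.2 FPKM, which is most of the A2 SMA sum. Neural progenitor markers were lower in 5 of 7 cases, with sums of 1076 and 240 FPKM, Sox2 at 179 and 197 FPKM and Pax6 at 22.4 and 21.4 FPKM being the exceptions. Of the 4 markers of the primed epiblast, 2 were at least 2-fold higher (6.83% of all genes), with sums of 43.3 and 81.9 FPKM. With a pseudocount of 1 FPKM, with a floor of 5 FPKM or without status FAIL, 1 primed epiblast marker was higher. Markers of fibroblasts, the feeder cells of mESC culture, were lower in 5 of 8 cases and higher in 1, with sums of 69.6 and 36.6 FPKM, but after centring on the median gene lower in 2. Endoderm markers had sums of 87.5 and 38.4 FPKM and mesoderm markers of 18.0 and 28.7 FPKM, with 2 of 5 and 2 of 3 at least 2-fold lower, beside 22.4% of all genes. After centring on the median gene 1 of 5 endoderm markers was lower. Most of the mesoderm sum was Hand1, at 14.7 and 26.7 FPKM with the status FAIL, and with a pseudocount of 1 FPKM 0 of 3 mesoderm markers were lower. No marker of these lists was at 0 in either genotype. Both populations were sorted for the same reporter, and fewer cells of a type and less RNA per cell cannot be told apart in bulk RNA. The part of these markers in the ratios of the 8 genes was not tested. Pou5f1, the core pluripotency factor, was at 1.08 times the level of Lin28a in Hb9 and 6.01 times in A2 SMA MNs, so the stem cell genes Lin28a and Pou5f1 did not move in proportion.

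The proteins that act on let-7 precursors beside LIN28 were described from a list of 23 genes for microRNA processing. Of these, 1 was at least 2-fold higher and 3 at least 2-fold lower in A2 SMA MNs (6.83% and 22.4% of all genes), 19 of 23 ratios were below 0 (65.9% of all genes), and the median was -0.37, close to the -0.29 of all genes. After centring on the median gene 14 of 23 were below 0. Among the terminal uridylyl transferases, 0 of 5 passed 2-fold in either direction. Zcchc11 (TUT4), which tails let-7 precursors held by LIN28A, was at 119 FPKM in Hb9 and 96.9 FPKM in A2 SMA MNs (log2 ratio -0.30), and Zcchc6 (TUT7) was at 17.6 and 9.97 FPKM with the status FAIL (-0.82). Levels of the tailing enzyme, like those of Dis3l2, were thus near the median gene for TUT4 and lower for TUT7.

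Drosha, the nuclease that cuts primary microRNA transcripts, was at 119 FPKM in Hb9 and 121 FPKM in A2 SMA MNs, while its partner Dgcr8 was at 26.0 and 54.0 FPKM, a log2 ratio of 1.05 in an entry with the status FAIL that it shares with Mir1306. Ddx5 and Ddx17, helicases of the same complex and the most abundant genes of the list, were at 241 and 233 FPKM in Hb9 and at 151 and 171 FPKM in A2 SMA MNs. The 3 genes at least 2-fold lower act after export from the nucleus, and 2 of them, without Prkra, were 2-fold lower after centring on the median gene. Prkra (PACT), a partner of Dicer, was at 35.6 and 17.1 FPKM (log2 ratio -1.06), Eif2c1 (Argonaute 1) at 59.0 and 18.3 FPKM with the status FAIL (-1.69), and Eif2c4 (Argonaute 4) at 2.74 and 1.09 FPKM (-1.33). Eif2c2 (Argonaute 2), the slicing Argonaute, was at 36.0 and 29.7 FPKM (-0.28). Of the 23 entries 11 have the status FAIL. Dicer1 itself, also with the status FAIL, was at 52.2 and 42.4 FPKM.

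RNA decay genes, the wider group of Dis3l2, had a median log2 ratio of 0.15, beside -0.29 for all genes. Of 17, 1 was at least 2-fold higher (6.83% of all genes) and 0 lower (22.4% of all genes). The gene beyond the limit was Exosc5, a subunit of the exosome ring, at 53.3 FPKM in Hb9 and 121 FPKM in A2 SMA MNs (log2 ratio 1.18). The 9 exosome genes listed, Exosc1 to Exosc5 and Exosc7 to Exosc10, had a median of 0.20. The most abundant of the list by the larger of the 2 values were Exosc8 at 129 and 143 FPKM (status FAIL), Xrn2, a nuclear 5′ exonuclease, at 115 and 164 FPKM, and Exosc9 at 84.5 and 121 FPKM.

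The microRNAs themselves cannot be read from this table, since a standard RNA library does not retain RNA as short as mature let-7. Of 12 annotated let-7 and miR-98 hairpins 10 have an entry, of which 6 are listed at 0 FPKM in both genotypes. Mirlet7d was listed at 1.46 FPKM in Hb9 and 1.16 FPKM in A2 SMA MNs, Mirlet7i at 5.15 and 0, Mirlet7c-2 at 0 and 0.955, and Mir98 at 0 and 0.222. FPKM of an entry as short as the 86 bases of Mirlet7i rests on few reads, so no ratio was formed. Of the same-strand genes around the hairpins, Huwe1, around Mir98 and Mirlet7f-2, was at 161 FPKM in Hb9 and 143 FPKM in A2 SMA MNs. Wdr82, around Mirlet7g, was at 50.9 and 58.4 FPKM. The non-coding host of Mirlet7c-1, 2810055G20Rik (now Mir99ahg), was at 2.20 and 0.152 FPKM, a log2 ratio of -3.85. The host of Mirlet7e, Ncrna00085 (now Spaca6), was at 4.82 and 3.37 FPKM. Host levels do not measure mature let-7, whose processing LIN28 controls.

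Of 35 genes listed as known let-7 targets, without the 8 genes, 33 were past the filter, and of these 10 were at least 2-fold lower in A2 SMA MNs (30.3%, beside 22.4% of all genes) and 1 higher, with a median log2 ratio of -0.43. Centred on the median gene the counts were 5 lower and 3 higher (16.5% and 10.4% of all genes). Without entries of status FAIL 6 of 25 were lower and 0 higher, beside 23.4% and 7.02% of all genes. The median was then -0.07, beside -0.30 for all genes. The lean of the list thus depended on these entries and on the scaling. Of the 10 lower genes 4 belong to the cell cycle, 4 to insulin, IGF and TGF-beta signaling and 2 to neither. Of 9 cell cycle genes 4 were at least 2-fold lower, and 2, Ccnd1 and Ccnd2, after centring on the median gene (16.5% of all genes). The 4 were Ccnd1 (cyclin D1) at 93.8 and 36.8 FPKM, Ccnd2 (cyclin D2, status FAIL) at 80.0 and 15.9 FPKM, the repressor E2f6 at 41.2 and 18.1 FPKM and the transcription factor Plagl2 at 25.1 and 10.4 FPKM. The G1 cyclins are used by dividing progenitors, and Ccnd2 had the lowest log2 ratio of the list at -2.33. Rrm2, a ribonucleotide reductase subunit needed in S phase, was nearly level at 100.2 and 93.2 FPKM.

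Of the 5 let-7 targets in insulin, IGF and TGF-beta signaling 4 were at least 2-fold lower (22.4% of all genes), and 1, Tgfbr1, after centring on the median gene (16.5% of all genes). The receptors among them were Igf1r at 28.2 and 13.2 FPKM, Insr at 18.1 and 8.04 FPKM and Tgfbr1 at 56.7 and 18.5 FPKM, each with the status FAIL, and the fourth was the secreted Thbs1 at 5.50 and 2.40 FPKM. The growth regulators Myc and Mycn were nearly level, with Myc at 10.1 FPKM in Hb9 and 9.73 FPKM in A2 SMA MNs and Mycn at 43.9 and 48.4 FPKM. The 7 targets in chromatin and transcription had a median of 0.32, and among them Prdm1, a repressor that marks germ cell precursors, was higher at 1.36 and 6.74 FPKM with the status FAIL (log2 ratio 2.31). The remaining 8 held 2 lower genes, Stard13 at 5.26 and 1.39 FPKM and Fas at 1.14 and 0.425 FPKM, and also Ero1l, an oxidase of the endoplasmic reticulum, at 134 and 139 FPKM.

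Of 11 transcripts that IGF2BP proteins are known to bind, Myc again among them, 2 were at least 2-fold higher (6.83% of all genes), 2 lower (22.4% of all genes) and the median was 0.15. Without entries of status FAIL 0 of 8 were higher, 2 were lower and the median was -0.06. Igf2, the fetal growth factor for whose mRNA the family is named, was at 487 FPKM in Hb9 and 199 FPKM in A2 SMA MNs (log2 ratio -1.29). H19, the non-coding RNA of the same imprinted locus, went the other way, at 352 and 813 FPKM, a log2 ratio of 1.21 in an entry of status FAIL shared with Mir675. Actb (beta-actin), the classic cargo of IGF2BP1 in neurites, was at 907 and 1231 FPKM (0.44). Cd44, an adhesion receptor, was at 9.98 and 3.77 FPKM (-1.41), and Gli1, a target and effector of hedgehog signaling, was at 8.86 and 17.9 FPKM with the status FAIL (1.01). The list therefore held abundant genes on both sides of 0 while Igf2bp1 itself was nearly level.

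Of 5 mRNAs known to be repressed by TRIM71, 2 were at least 2-fold lower and 0 higher (22.4% and 6.83% of all genes), and 4 of 5 ratios were below 0 (65.9% of all genes), with a median of -0.76. Such counts are near the background for so few genes. Cdkn1a, the cell cycle inhibitor p21, was at 91.7 FPKM in Hb9 and 54.0 FPKM in A2 SMA MNs (log2 ratio -0.76). Rbl2, a pocket protein of the retinoblastoma family, was at 11.6 and 5.53 FPKM (-1.06), and Mbnl1, a splicing factor of differentiated cells, was at 5.75 and 2.58 FPKM (-1.16). Egr1, an immediate early transcription factor, was higher in value at 15.3 and 24.4 FPKM (0.68). After centring on the median gene 0 of 5 were 2-fold lower.

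**Figure D4:**
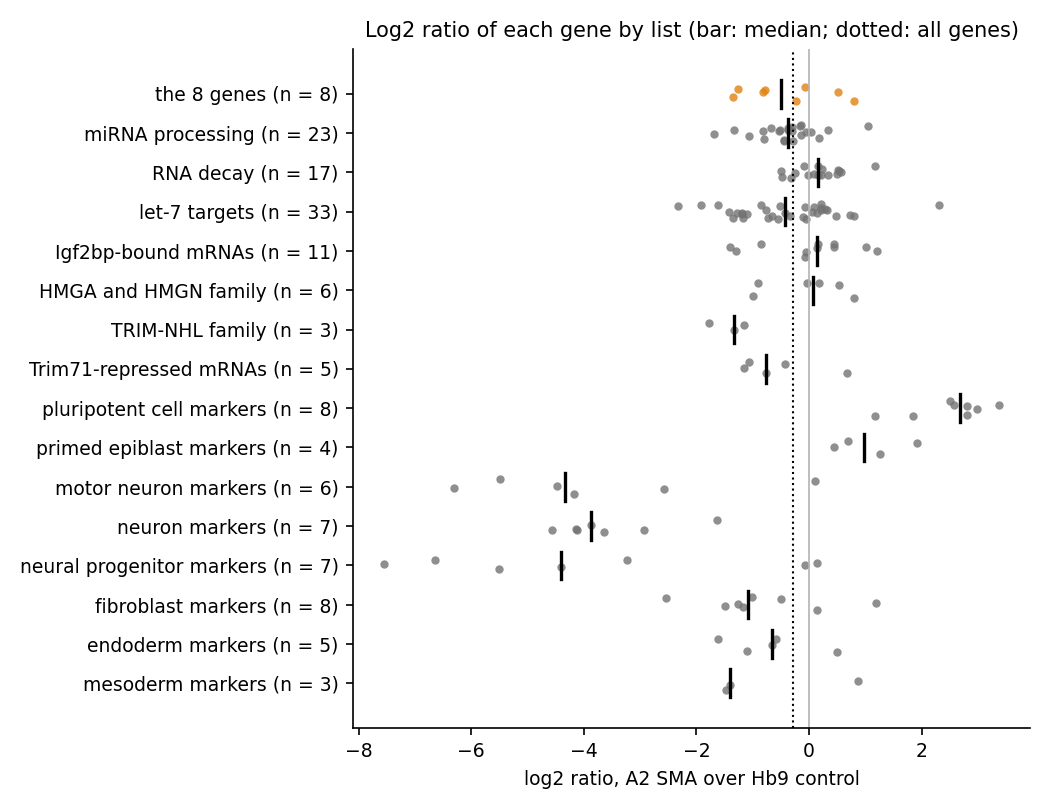
Each point is the log2 ratio of A2 SMA over Hb9 control (x axis) of 1 gene past the filter, by gene list (y axis, with the number of genes), the vertical bar is the median of the list, the dotted line the median of all genes and the grey line 0. The 8 genes spread from -1.35 to 0.80, while pluripotent cell markers sit above 1 and the medians of MN, neuron and neural progenitor markers sit below -3.

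The genes nearest to 3 of the 8 in level were found by distance between the 2 log2 FPKM values, over 21564 genes above 0 in both genotypes. For Lin28a these were Brix1, at 91.7 FPKM in Hb9 and 130 FPKM in A2 SMA MNs (distance 0.018), Yap1 (0.036, status FAIL) and Sohlh2 (0.036). For Hmga2 they were Sdc2, at 23.3 and 9.64 FPKM (0.015), 4632419I22Rik (0.041, status FAIL) and Prkar2b (0.050). For Igf2bp1 they were Kdm1a, at 204 and 199 FPKM (0.021, status FAIL), Cul1 (0.029) and Papola (0.034). With only 2 values per gene, such nearness says no more than that the levels were alike.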

How the data were processed

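RNA of sorted MNs (3 samples per genotype) was made into TruSeq libraries and sequenced as single-end reads. Per the submitters' notes and methods, the authors used FastQC 0.10.1, CutAdapt, TopHat2 2.04, Cufflinks and Cuffdiff, with positions in NCBI m37. The deposited values are FPKM, 1 per genotype, pooled by Cuffdiff over 3 samples. The table also holds the authors' log2 fold change, test statistic, p, q and call of each entry, which were not used. Depth per sample and the reads behind a value are not in these columns.

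Symbols were split at commas, and the entry with the highest FPKM was taken. Log2 ratios were formed without a pseudocount, and a gene needed 1 FPKM in either genotype and more than 0 in both. A gene was counted as higher or lower at 2-fold or more, with no test. The 8 genes and the lists were chosen by name and role, with earlier results of these data known. List genes named are the 3 most abundant, those past 2-fold and others whose role bears on the pathway. The other list genes, and some that are not reported here, enter only through the counts and medians of their lists. The counting was tested on simulated data. Seed matches were searched in GENCODE M21 transcripts, and Python 3.11.15, numpy 2.4.6, pandas 2.3.3 and matplotlib 3.10.9 were used. Alternatives were pseudocounts of 0.1 and 1 FPKM, a floor of 5 FPKM or none, 3 scalings, summed entries, leaving out status FAIL, and limits of 1.5-fold and 4-fold.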

Additional observations from a re-analysis of the deposited data

How the results depend on the processing

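No paired analysis was possible because the table gives 1 value per genotype, and for the same reason no sample could be left out. Of the 8 genes, 1 was at least 2-fold higher after centring on the median gene, after scaling to the upper quartile or with a 1.5-fold limit, in place of 0. The number at least 2-fold lower went from 2 to 1 with either of these scalings, to 4 at 1.5-fold and to 0 at 4-fold. Of all genes past the filter, 10.4% were at least 2-fold higher and 16.5% lower with either of these scalings. At 1.5-fold 12.7% were higher and 35.4% lower, and at 4-fold 1.80% were higher and 8.88% lower. For so short a list the counts of the 8 genes are close to these shares. The scalings shift log2 ratios by 0.29 for the median gene and the upper quartile and by 0.14 for Gusb, Pgk1 and Rpl13a, and with centring the share of 2-fold differences that were higher in A2 SMA MNs went from 23.4% to 38.8% over all genes. The sign of the log2 ratio changed for Dis3l2 under 2 alternatives and for Igf2bp1 under 3, all of them scalings, and for none of the other 6 genes. All 8 genes have 1 entry and values well above the pseudocounts, so apart from the scalings these alternatives could hardly change their ratios. With a pseudocount of 1 FPKM the log2 ratio of Lin28b, the gene with the lowest levels of the 8, was -1.24 in place of -1.35. Of 306 list counts 264 stayed within 1.5 times and 42 did not.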

Other observations

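Over genes past the filter other than the 8, the median log2 ratio was -0.29 for 10504 genes without a let-7 seed match in the 3′ UTR, -0.38 for 961 with 1, -0.45 for 113 with 2 and -0.59 for 16 with 3 or more. Median 3′ UTR length went with the number of matches, from 885 bases without a match to 2067 bases with 1 and 3518 bases with 2. Within 3′ UTRs of 2000 to 4000 bases the medians were -0.45 for 1804 genes without a match, -0.35 for 308 with 1, -0.71 for 47 with 2 and -0.49 for 5 with 3 or more, so the order seen over all lengths was not kept. No test was run on these medians.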
